A study of Homo sapiens with 15 samples.

Results

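NF-kappaB subunits, inhibitors and targets were followed as a list of 10 genes across 2 human cell lines. The list was given by symbol: the subunit genes NFKB1, NFKB2, RELA and REL, the inhibitor genes NFKBIA, NFKBIE and TNFAIP3, and BIRC3, ICAM1 and IRF1, genes that NF-kappaB is known to switch on. It was chosen with earlier results of these data known, so counts over it are a description. All 10 symbols were found in both count tables, among 62703 genes in the HEK293T table and 35595 in the HuCCT1 table, and all 10 were kept by the filter on low counts in both lines.

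NF-kappaB is a family of dimeric transcription factors. In resting cells the dimers are held in the cytoplasm by IkappaB proteins. Signals from cytokine and pattern receptors pass through adaptors to the IkappaB kinase complex, which marks IkappaB for destruction and frees the dimers to enter the nucleus. Several of the genes then switched on encode the inhibitors themselves, so their RNA is commonly read as a trace of the pathway's activity. In biliary epithelium and its tumours the pathway is known for driving chemokines, adhesion molecules and survival genes.

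The HEK293T libraries, from a human embryonic kidney line that carries the SV40 large T antigen, form 3 groups labelled SNRPD2KO, PUS7KO and Ctrl. The HuCCT1 libraries, from a human bile duct carcinoma line, form 2 groups labelled SNRPD2KO and Ctrl. Each group has 3 libraries of total RNA depleted of ribosomal RNA. SNRPD2 codes for the Sm protein SmD2, part of the core of spliceosomal snRNPs, and PUS7 encodes a pseudouridine synthase. The knockouts were made with CRISPR-Cas9, and the study asked how SmD2 and pseudouridine are related in these cells. Whether a knockout line was a single clone, and whether replicates were separate cultures, is not stated, so p-values measure only the spread between these libraries, which may be technical.

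The labels were checked against the targeted genes. SNRPD2 RNA goes against its label: it had 309, 286 and 246 CPM (counts scaled to a common normalised library size) in the HEK293T libraries labelled SNRPD2KO, against 196, 169 and 182 CPM in Ctrl. In HuCCT1 it had 259.9, 286 and 319 CPM in the libraries labelled SNRPD2KO, against 159.9, 146 and 157 CPM in Ctrl. SNRPD2 RNA was thus higher in every library labelled SNRPD2KO than in any Ctrl library of its line, and every direction given below for these libraries carries that limit. PUS7 had 13.7, 18.1 and 16.3 CPM in PUS7KO libraries and 31.1, 31.3 and 32.8 CPM in HEK293T libraries labelled SNRPD2KO, against 26.5, 26 and 27 CPM in Ctrl, and its log2 fold change in PUS7KO over Ctrl was -0.72 (SE 0.11, adjusted p = 6.72e-05) by edgeR's quasi-likelihood test. SNRPD2 RNA was also higher in the PUS7KO libraries than in Ctrl, by a log2 fold change of 0.52 (SE 0.10, adjusted p = 3.38e-04).

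Total counts were 10080682 to 11270267 in HEK293T libraries labelled SNRPD2KO, 10022912 to 11181703 in PUS7KO and 7944276 to 9202622 in Ctrl. Libraries labelled SNRPD2KO had a count on 24947 to 26998 genes and PUS7KO libraries on 26626 to 27460, against 29551 to 30073 genes in Ctrl, so the shallower Ctrl libraries held more genes. In HuCCT1 total counts were 15580342 to 16772238 in libraries labelled SNRPD2KO and 13776166 to 16795618 in Ctrl, with a count on 25471 to 26091 genes in libraries labelled SNRPD2KO and 25787 to 26478 in Ctrl. Protein-coding genes took 61.73% to 68.84% of counts in HEK293T and 93.55% to 95.34% in HuCCT1, which makes CPM of the lines unlike in what they are a share of. The 7 biliary markers (KRT7, KRT19, KRT8, KRT18, EPCAM, SOX9 and MUC1) summed to 11595 to 12527 CPM in HuCCT1 libraries and 206 to 365 CPM in HEK293T libraries. Of the 5 markers for HEK293T (NEFL, NEFM, LIN28B, PAX2 and VIM), PAX2 was near 0, with at most 7 counts in any library of that line.

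Promoter windows of 300 bases, from 250 before to 50 after each transcript start, were taken from RefSeq (GRCh38.p14) for 9 of the 10 genes (all but NFKBIE), 13 windows in all. They were searched on both strands for the 10-base kappaB consensus and for the shorter GGAAATNCC, which was chosen after these promoters had been seen. The consensus stood in windows of 7 of the genes and in 11.3% of 35116 windows of all genes. GGAAATNCC stood in windows of 6 of them (NFKB1, REL, NFKBIA, TNFAIP3, BIRC3 and ICAM1) and in 1.44% of all windows. Both shares are of single windows, while some of the 9 genes have several, so they are not a like background for the gene counts. As GGAAATNCC was chosen with these promoters seen, its count here is a description. The 4 stretches below run from 250 to 46 bases before the start, 5′ to 3′ on the gene's strand. They are shown because these are the inhibitor and target genes whose windows hold GGAAATNCC. Each was called lower in at least 1 line, but BIRC3 only in HEK293T, where it passed the low-count filter only through Ctrl. Capitals mark GGAAATNCC. They lie at chr14:35404795-35404999 (-) for NFKBIA, chr6:137867009-137867213 (+) for TNFAIP3, chr19:10270870-10271074 (+) for ICAM1 and chr11:102317234-102317438 (+) for BIRC3.
NFKBIA: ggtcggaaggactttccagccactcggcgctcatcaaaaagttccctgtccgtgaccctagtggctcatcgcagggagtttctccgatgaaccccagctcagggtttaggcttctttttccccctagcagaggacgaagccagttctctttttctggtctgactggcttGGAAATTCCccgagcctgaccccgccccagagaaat
TNFAIP3: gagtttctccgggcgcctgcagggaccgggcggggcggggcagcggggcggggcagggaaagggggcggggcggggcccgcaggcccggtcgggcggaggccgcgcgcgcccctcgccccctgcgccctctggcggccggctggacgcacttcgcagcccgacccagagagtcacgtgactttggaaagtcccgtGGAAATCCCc
ICAM1: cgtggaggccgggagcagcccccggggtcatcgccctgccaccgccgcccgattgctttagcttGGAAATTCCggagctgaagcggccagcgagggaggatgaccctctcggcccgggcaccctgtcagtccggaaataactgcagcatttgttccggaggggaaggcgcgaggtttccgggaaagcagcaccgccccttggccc
BIRC3: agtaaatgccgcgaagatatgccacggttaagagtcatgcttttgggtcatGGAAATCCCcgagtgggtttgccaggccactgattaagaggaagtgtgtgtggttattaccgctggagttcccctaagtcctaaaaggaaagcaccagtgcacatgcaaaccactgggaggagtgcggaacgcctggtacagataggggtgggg
NFKBIA and ICAM1 carry GGAAATTCC, and TNFAIP3 and BIRC3 carry GGAAATCCC. In NFKBIA, TNFAIP3 and BIRC3 a consensus match overlaps the capitals, starting 81, 55 and 199 bases before the transcript start, and TNFAIP3 and BIRC3 each have another consensus match, 67 and 135 bases before it. ICAM1 has GGAAATNCC 186 bases before the start and no consensus match in this window. IRF1 and NFKB2 have the consensus alone, and the windows of RELA have neither.

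**Figure D1:**
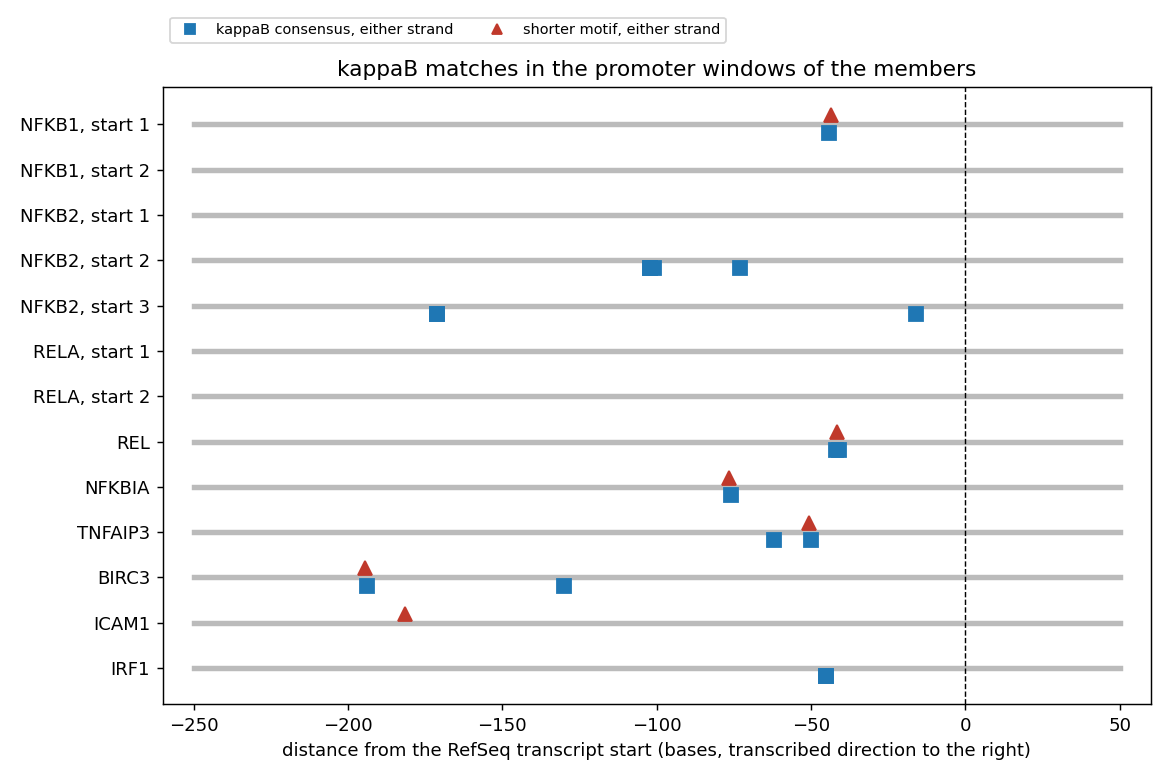
Matches to the kappaB consensus (squares) and to the shorter motif (triangles) on either strand in the 13 promoter windows, against distance from the transcript start in bases. Matches stand in windows of NFKB1, NFKB2, REL, NFKBIA, TNFAIP3, BIRC3, ICAM1 and IRF1, and RELA has none.

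Genes with either motif were also counted over the whole table. Of 1790 tested genes with the consensus, 27.3% were lower in HuCCT1 libraries labelled SNRPD2KO, against 30.5% of 8680 genes whose windows lack it, and in HEK293T libraries labelled SNRPD2KO these shares were 22.9% of 1928 genes and 27.1% of 9150 genes. Of 206 tested genes with GGAAATNCC, 30.1% were lower in HuCCT1 libraries labelled SNRPD2KO, against 29.9% of 10264 genes whose windows lack it. For GGAAATNCC in HEK293T the shares were 23.9% of 201 genes and 26.4% of 10877 genes. These shares are a description, with no test.

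In HuCCT1 libraries labelled SNRPD2KO, where SNRPD2 RNA was higher, 7 of the 10 genes were lower than in Ctrl and 3 did not pass the threshold (adjusted p under 0.05, edgeR's quasi-likelihood test). The IkappaB genes of the list, NFKBIA and NFKBIE, the feedback enzyme TNFAIP3 and the adhesion molecule ICAM1 fell to between 1.87-fold and 2.51-fold under Ctrl. The subunit genes NFKB1, NFKB2 and RELA fell by less. REL, BIRC3 and IRF1 had log2 fold changes of 0.28, 0.09 and 0.02. Among all 15007 genes tested in this line 28.4 percent were called lower and 57.2 percent were called in either direction, so a call alone says little about any single gene. All 7 also lay below Ctrl in every library, as did 31.6 percent of all genes. The median log2 fold change was -0.58 over the 10 genes and 0.00 over all genes tested.

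The same 10 genes summed to 1000 to 1056 CPM in HuCCT1 libraries labelled SNRPD2KO, against 1548 to 1586 CPM in Ctrl. In bulk RNA, fewer cells that express a gene and less RNA per cell cannot be told apart. The leukocyte markers PTPRC, CD3E, CD14 and LYZ summed to 1.59 to 1.72 CPM in these libraries, against 3.23 to 3.74 CPM in Ctrl. Of these, PTPRC had at most 1 count in any HuCCT1 library and CD3E at most 1, and CD14 was lower by a log2 fold change of -1.01 (SE 0.22, adjusted p = 0.00229).

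In HEK293T libraries labelled SNRPD2KO, where SNRPD2 RNA was again higher, NFKB2 was higher than in Ctrl, though not once the trend of fold change on guanine and cytosine (GC) content was removed, and REL, NFKBIE, TNFAIP3 and BIRC3 were lower, while 5 genes did not pass. Over all 15882 genes tested, 53.3 percent were called, 26.9 percent higher and 26.4 percent lower, and the 1 higher and 4 lower of the 10 are to be read against those shares. In PUS7KO libraries 6 of the 10 genes were lower than in Ctrl (RELA, REL, NFKBIA, TNFAIP3, BIRC3 and ICAM1) and 4 did not pass, against 49.4 percent called among all genes, 25.6 percent higher and 23.8 percent lower. In CPM, 6 of the 10 lay below Ctrl in every library labelled SNRPD2KO and 6 in every PUS7KO library, against 29.4 percent and 27.7 percent of all genes. The median log2 fold change of the list was -0.35 in libraries labelled SNRPD2KO and -0.42 in PUS7KO, against 0.02 and 0.01 over all genes tested. With the GC trend removed, 7 of the 10 genes were lower and 0 higher in each of the HEK293T comparisons with Ctrl and in HuCCT1. Of all 15882 genes in HEK293T, 4080 were then lower and 4023 higher in libraries labelled SNRPD2KO, and 4093 lower and 3918 higher in PUS7KO. Of 15007 genes in HuCCT1, 4452 were lower and 4171 higher. Both HEK293T comparisons use the same 3 Ctrl libraries, so an accident of those libraries enters both. The greater number of genes detected in these Ctrl libraries moves with both comparisons, and its part in them was not tested. The 5 markers for HEK293T summed to 693 to 763 CPM in libraries labelled SNRPD2KO and 807 to 886 CPM in PUS7KO, against 806 to 993 CPM in Ctrl. Of these, NEFL and NEFM were higher in both comparisons, VIM was lower in both, LIN28B was lower in libraries labelled SNRPD2KO and did not pass in PUS7KO, and PAX2 was not tested. The 7 biliary markers summed to 217 to 254 CPM in libraries labelled SNRPD2KO and 214 to 250 CPM in PUS7KO, against 206 to 365 CPM in Ctrl. PTPRC, CD3E and LYZ had at most 3 counts in any HEK293T library, and CD14 had at most 3 counts in libraries labelled SNRPD2KO and 4 in PUS7KO, against 5 to 17 in Ctrl. The part of these markers in the differences was not tested.

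BIRC3 passed the low-count filter in HEK293T only through Ctrl. The filter asked for 0.992 CPM in 3 libraries, which BIRC3 reached in 0 libraries labelled SNRPD2KO, 1 PUS7KO library and 3 Ctrl libraries. It had to lean lower to be tested at all, so it adds nothing to the calls above. Without it these are 3 lower in libraries labelled SNRPD2KO and 5 in PUS7KO, of 9 genes. The HEK293T medians, the counts of genes below Ctrl in every library and the counts with the GC trend removed still include BIRC3. Among the other 9 genes the middle log2 fold change was that of IRF1, -0.24, in libraries labelled SNRPD2KO. In PUS7KO it was that of NFKBIE, -0.29. BIRC3 is also among the genes counted below Ctrl in every library in both comparisons.

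**Figure D2:**
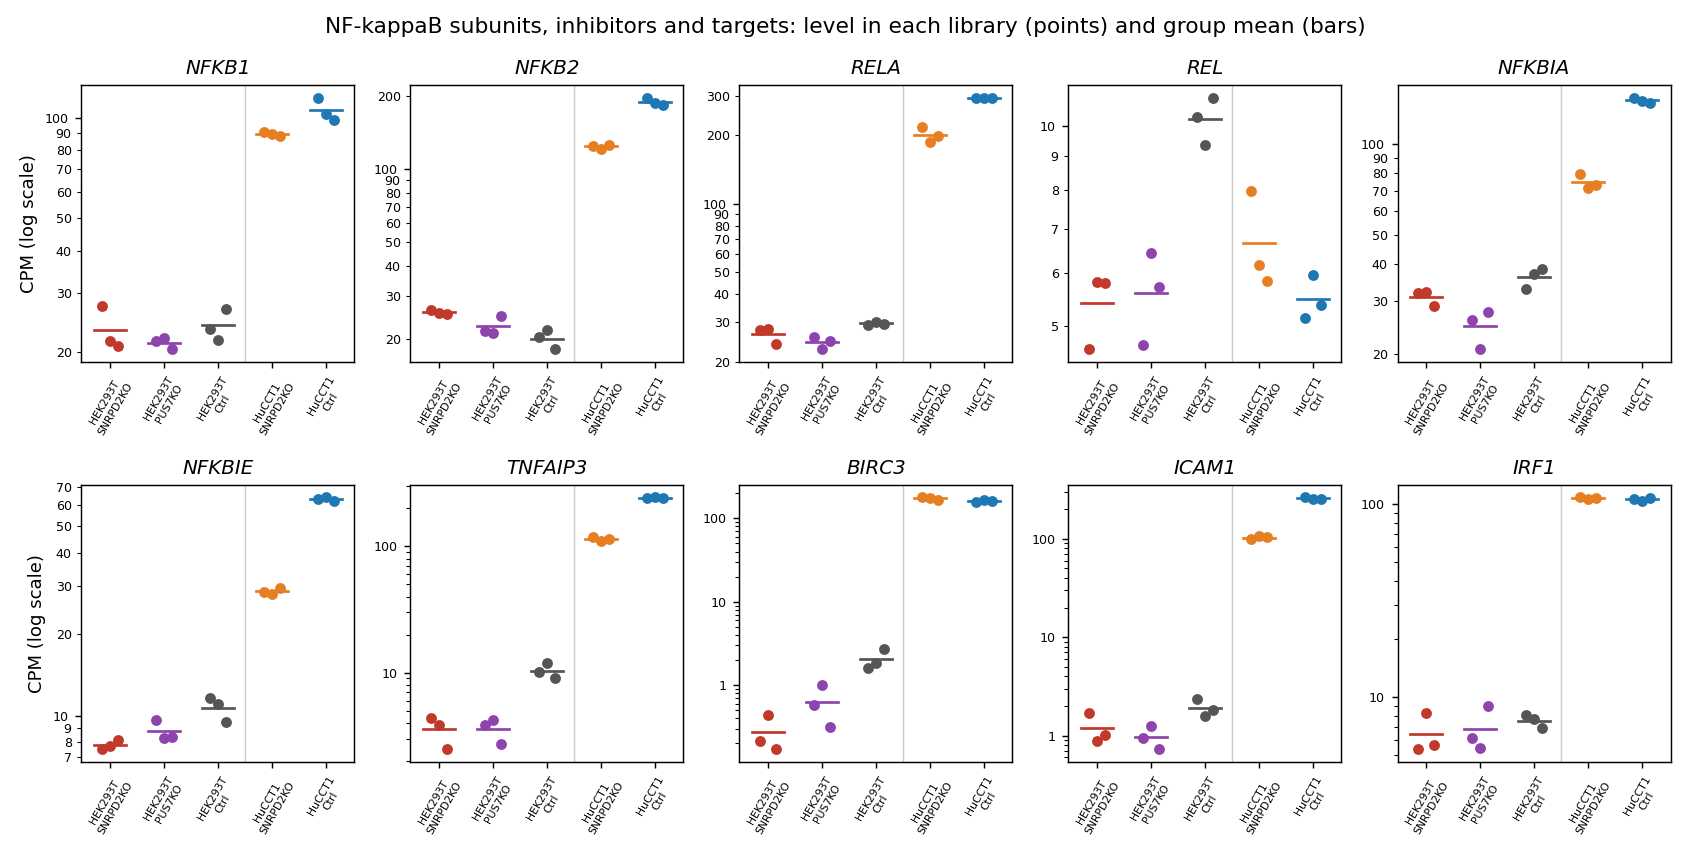
CPM of each gene (log scale) in every library of the 5 groups, with bars at the group means. In HuCCT1 the libraries labelled SNRPD2KO lie under Ctrl for NFKB1, NFKB2, RELA, NFKBIA, NFKBIE, TNFAIP3 and ICAM1, and in HEK293T both labelled knockouts lie under Ctrl for REL, RELA, NFKBIA, TNFAIP3 and BIRC3.

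Subunit genes come first. NFKB1, at chr4:102501330-102617302 (+), encodes p105, the precursor of p50. It had 90.4, 89.3 and 88.1 CPM in HuCCT1 libraries labelled SNRPD2KO, against 115, 103 and 98.2 CPM in Ctrl. The groups did not overlap, and the log2 fold change was -0.24 (SE 0.07, adjusted p = 0.00928), the smallest of the 7 that passed. HEK293T libraries labelled SNRPD2KO had 27.4, 21.6 and 20.8 CPM and PUS7KO libraries 21.5, 22 and 20.3 CPM, against 23.4, 21.6 and 26.8 CPM in Ctrl. All 3 HEK293T groups overlapped, with log2 fold changes over Ctrl of -0.04 (95% interval -0.31 to 0.22) in libraries labelled SNRPD2KO and -0.17 (-0.43 to 0.09) in PUS7KO.

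NFKB2, at chr10:102394110-102402524 (+), encodes p100, which is cut to p52 in the noncanonical arm of the pathway and holds RelB in the cytoplasm until then. Its level was 125, 121 and 126 CPM in HuCCT1 libraries labelled SNRPD2KO, against 197, 188 and 183 CPM in Ctrl, and the log2 fold change was -0.61 (SE 0.05, adjusted p = 2.54e-06). In HEK293T it ran the other way, with 26.3, 25.6 and 25.4 CPM in libraries labelled SNRPD2KO, against 20.4, 21.8 and 18.2 CPM in Ctrl. These groups did not overlap, and the log2 fold change was 0.36 (SE 0.11, adjusted p = 0.012). That call rests on how GC content is treated: with the trend of fold change on GC content removed, the log2 fold change was -0.00505 (adjusted p = 0.972, against 0.00498 to 0.972 over the alternatives tried). In PUS7KO libraries NFKB2 had 21.6, 21.3 and 25 CPM, overlapping Ctrl, with a log2 fold change of 0.17 that did not pass (adjusted p = 0.228).

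RELA, at chr11:65653599-65663090 (-), encodes p65, the subunit that carries the transactivation domain of the common dimer. It had 218, 187 and 199 CPM in HuCCT1 libraries labelled SNRPD2KO, against 293, 294 and 294 CPM in Ctrl, where the 3 libraries were within 1 CPM of each other. The log2 fold change there was -0.54 (SE 0.06, adjusted p = 1.92e-05). In HEK293T it had 27.6, 28 and 24 CPM in libraries labelled SNRPD2KO and 25.9, 22.7 and 24.7 CPM in PUS7KO, against 29.1, 30.1 and 29.5 CPM in Ctrl. Every labelled knockout library lay under every Ctrl library, but by little. The log2 fold change was -0.16 (SE 0.10, adjusted p = 0.204) in libraries labelled SNRPD2KO and -0.28 (SE 0.10, adjusted p = 0.0333) in PUS7KO, and the PUS7KO call was lost when any single one of the 6 libraries was left out, with adjusted p of 0.0511 to 0.143.

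REL, at chr2:60881491-60931612 (+), encodes c-Rel, a subunit best known from lymphocytes. HEK293T libraries labelled SNRPD2KO had 4.61, 5.83 and 5.8 CPM and PUS7KO libraries 4.68, 6.43 and 5.72 CPM, against 10.3, 9.36 and 11 CPM in Ctrl. REL was the subunit gene with the largest difference in this line, and neither labelled knockout overlapped Ctrl. The log2 fold change of REL was -0.91 (SE 0.18, adjusted p = 4.20e-04) in libraries labelled SNRPD2KO and -0.86 (SE 0.18, adjusted p = 7.53e-04) in PUS7KO. With the GC trend removed the first was -0.52 (adjusted p = 0.0172). In HuCCT1 it had 7.97, 6.17 and 5.85 CPM in libraries labelled SNRPD2KO, against 5.15, 5.97 and 5.39 CPM in Ctrl, the groups overlapped, and the log2 fold change of 0.28 (95% interval -0.09 to 0.65) did not pass.

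Among the inhibitors, NFKBIA, at chr14:35401079-35404749 (-), encodes IkappaB-alpha, the fast feedback inhibitor whose promoter is printed above. In HuCCT1 it had 79.8, 71.5 and 73.4 CPM in libraries labelled SNRPD2KO, against 143, 139.8 and 137 CPM in Ctrl. The groups lay far apart, with a log2 fold change of -0.90 (SE 0.06, adjusted p = 3.59e-07). In HEK293T it had 31.9, 32.1 and 28.9 CPM in libraries labelled SNRPD2KO and 25.9, 20.7 and 27.7 CPM in PUS7KO, against 33, 36.9 and 38.4 CPM in Ctrl. Neither group overlapped Ctrl, the PUS7KO difference passed at -0.55 (SE 0.12, adjusted p = 9.00e-04), and that of libraries labelled SNRPD2KO did not, at -0.22 (SE 0.11, adjusted p = 0.112).

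NFKBIE, at chr6:44258166-44265788 (-), encodes IkappaB-epsilon, a slower feedback inhibitor. It had 28.7, 28.1 and 29.7 CPM in HuCCT1 libraries labelled SNRPD2KO, against 63.1, 64.1 and 62.2 CPM in Ctrl. Each group was tight, and the log2 fold change was -1.13 (SE 0.06, adjusted p = 8.48e-08), or 2.19-fold lower. In HEK293T it had 7.51, 7.7 and 8.11 CPM in libraries labelled SNRPD2KO and 9.65, 8.27 and 8.33 CPM in PUS7KO, against 11.6, 11.1 and 9.43 CPM in Ctrl. The first group did not overlap Ctrl and passed at -0.46 (SE 0.15, adjusted p = 0.0177), and the second overlapped Ctrl and did not, at -0.29 (SE 0.15, adjusted p = 0.118). Leaving out replicate 1 or 2 of the libraries labelled SNRPD2KO, or replicate 1 or 2 of Ctrl, took the first call past the threshold, with adjusted p of 0.0570 to 0.0634, and using no low-count filter gave 0.126. With the GC trend removed it was larger, -0.80 (adjusted p = 2.61e-04).

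TNFAIP3, at chr6:137867214-137883314 (+), encodes A20, a ubiquitin-editing enzyme that shuts the pathway down upstream of the IkappaB kinases. It was lower in all 3 comparisons with Ctrl. HuCCT1 libraries labelled SNRPD2KO had 119, 110.0 and 114 CPM, against 240.5, 245 and 242 CPM in Ctrl, a log2 fold change of -1.08 (SE 0.05, adjusted p = 4.84e-08). HEK293T libraries labelled SNRPD2KO had 4.4, 3.85 and 2.47 CPM and PUS7KO libraries 3.82, 4.17 and 2.71 CPM, against 10.2, 11.9 and 8.98 CPM in Ctrl. No labelled knockout library reached a Ctrl library of its line. The log2 fold change in HEK293T was -1.55 (SE 0.23, adjusted p = 3.20e-05) in libraries labelled SNRPD2KO and -1.52 (SE 0.23, adjusted p = 4.22e-05) in PUS7KO. Lower log2 fold changes than these were found in 4.62% and 3.75% of all genes tested, and in HuCCT1 in 5.62%.

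Among the targets, BIRC3, at chr11:102317450-102339403 (+), encodes cIAP2, a ubiquitin ligase of the TNF receptor complex that protects cells from death. HuCCT1 libraries labelled SNRPD2KO had 179, 175 and 166 CPM, against 158, 168 and 163 CPM in Ctrl. The groups overlapped and the log2 fold change was 0.09 (SE 0.05, adjusted p = 0.198). In HEK293T there were only 2, 4 and 2 counts in libraries labelled SNRPD2KO and 6, 12 and 3 counts in PUS7KO libraries, against 15, 16 and 24 counts in Ctrl. As BIRC3 passed the low-count filter in this line only through Ctrl, it had to lean lower to be tested. Its log2 fold changes there, -2.88 in libraries labelled SNRPD2KO and -1.64 in PUS7KO, are therefore given as a description with no test. The neighbouring paralog BIRC2, which encodes cIAP1, had a log2 fold change of -0.34 (SE 0.11, adjusted p = 0.0187) in HEK293T libraries labelled SNRPD2KO and 0.37 (SE 0.06, adjusted p = 2.78e-04) in HuCCT1.

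ICAM1, at chr19:10271093-10286615 (+), encodes an adhesion molecule for leukocyte integrins. HuCCT1 libraries labelled SNRPD2KO had 98.8, 106 and 104 CPM, against 264, 256 and 255 CPM in Ctrl. This was the largest difference of the 10 genes in that line, 2.51-fold lower, with a log2 fold change of -1.33 (SE 0.05, adjusted p = 1.53e-08), and 3.51% of all genes tested had a lower one. In HEK293T there were 16, 8 and 12 counts in libraries labelled SNRPD2KO and 10, 15 and 7 counts in PUS7KO libraries, against 22, 14 and 16 counts in Ctrl. At this depth the first difference did not pass, with -0.68 (SE 0.37, adjusted p = 0.128). The PUS7KO difference of -0.95 (SE 0.37, adjusted p = 0.0424) no longer passed without PUS7KO replicate 1 or 3 or any single Ctrl library, with adjusted p of 0.0523 to 0.159, nor with the replicate number as a block (0.0543).

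IRF1, at chr5:132440440-132508719 (-), encodes an interferon-regulatory transcription factor that NF-kappaB is known to induce. HuCCT1 libraries labelled SNRPD2KO had 109, 107 and 108 CPM, against 107, 104 and 108 CPM in Ctrl. The groups overlapped, and the log2 fold change of 0.02 had a 95% interval of -0.10 to 0.13, the narrow interval of a well-counted gene. HEK293T libraries labelled SNRPD2KO had 5.36, 8.25 and 5.63 CPM and PUS7KO libraries 6.11, 5.43 and 8.95 CPM, against 8.04, 7.65 and 6.93 CPM in Ctrl. All 3 groups overlapped, and the intervals were wider, -0.70 to 0.22 in libraries labelled SNRPD2KO and -0.61 to 0.30 in PUS7KO.

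**Figure D3:**
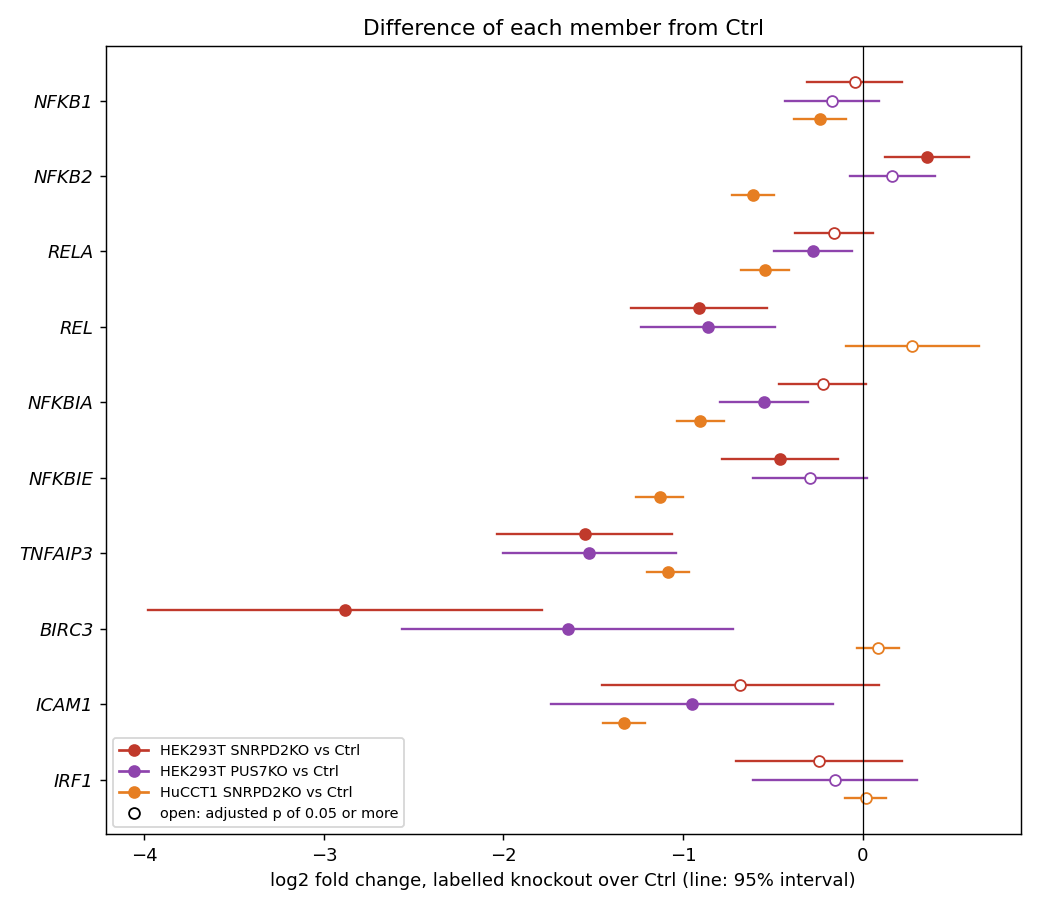
Log2 fold change over Ctrl of each gene in the 3 comparisons, with 95% intervals, filled where the adjusted p was under 0.05. TNFAIP3 lies left of 0 in all 3 at -1.55, -1.52 and -1.08. REL, BIRC3 and IRF1 lie left of 0 in HEK293T alone, IRF1 without a call. In HEK293T BIRC3 passed the low-count filter only through Ctrl, so its points there are a description.

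Levels of the lines come from tables normalised separately and were set side by side without a test. In every HuCCT1 library, NFKB1, NFKB2, RELA, NFKBIA, NFKBIE, TNFAIP3, BIRC3, ICAM1 and IRF1 had more CPM than in any HEK293T library. REL alone had its highest group mean in HEK293T Ctrl, at 10.2 ± 0.833 CPM (SD, n = 3), followed by 6.66 ± 1.14 CPM in HuCCT1 libraries labelled SNRPD2KO. Its 3 other groups lay below and overlapped each other, at 5.61 ± 0.88 CPM in HEK293T PUS7KO, 5.42 ± 0.694 CPM in HEK293T libraries labelled SNRPD2KO and 5.5 ± 0.424 CPM in HuCCT1 Ctrl. TNFAIP3 averaged 114 ± 4.78 CPM in HuCCT1 libraries labelled SNRPD2KO, still far above its 10.3 ± 1.45 CPM in HEK293T Ctrl. BIRC3 and ICAM1 spanned the widest range, with BIRC3 at 163 ± 5 CPM in HuCCT1 Ctrl and 2.05 ± 0.593 CPM in HEK293T Ctrl.

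The response of libraries labelled SNRPD2KO over Ctrl was then compared between HuCCT1 and HEK293T as an interaction over 12 libraries and 17617 genes. It differed for 6 of the 10 genes, 2 higher in HuCCT1 and 4 lower, against 40.7 percent of all genes called, 19.8 percent higher and 20.9 percent lower. BIRC3 had the largest difference, 2.94 (SE 0.36, adjusted p = 4.16e-06), and REL the next, 1.14 (SE 0.24, adjusted p = 0.00106). Both were lower in HEK293T and did not pass in HuCCT1, but BIRC3 had passed the HEK293T filter only through Ctrl. The REL difference was 0.60 (adjusted p = 0.0476) with the GC trend removed. NFKB2 differed by -1.01 (SE 0.11, adjusted p = 1.01e-06), the only gene of the list called in opposite directions in the 2 lines, although its HEK293T call was lost with the GC trend removed. NFKBIA, NFKBIE and RELA were lower by more in HuCCT1, with differences of -0.72, -0.72 and -0.43. For TNFAIP3 the difference was 0.43 (SE 0.19, adjusted p = 0.0763) and for ICAM1 -0.68 (SE 0.27, adjusted p = 0.0747), neither past the threshold. TNFAIP3 passed without HEK293T SNRPD2KO replicate 1 (adjusted p = 0.0318) or Ctrl replicate 3 (0.0409), and ICAM1 passed without HEK293T SNRPD2KO replicate 2 (0.0432) or Ctrl replicate 1 (0.0433). IRF1 differed by 0.22 (SE 0.17, adjusted p = 0.312), and passed only without HEK293T SNRPD2KO replicate 2 (0.0466). The RELA difference did not pass with the GC trend removed (adjusted p = 0.0556).

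Set against each other directly, HEK293T libraries labelled SNRPD2KO and PUS7KO libraries gave no call among the 10 genes in edgeR's quasi-likelihood test, in limma voom or in DESeq2, where edgeR called 4.77 percent of all genes, 1.57 percent higher and 3.2 percent lower. At an unadjusted p under 0.05 there was 1 gene, NFKBIA, with a log2 fold change of 0.33 (SE 0.12, adjusted p = 0.109). For TNFAIP3 the difference was -0.03 with a 95% interval of -0.56 to 0.50, and for REL -0.05 with -0.45 to 0.34. Differences within those intervals are not excluded. BIRC3 had the widest interval, -2.53 to 0.05.

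Genes that overlap a member were followed because the strand setting of the counting is not given, although the kit was strand-specific. It is not known whether reads of a gene and its antisense partner were kept apart. RELA-DT, a long noncoding RNA gene that overlaps the start of RELA on the other strand, went the opposite way. It had 75, 68 and 67 counts in HEK293T libraries labelled SNRPD2KO and 55, 78 and 69 counts in PUS7KO, against 34, 21 and 28 counts in Ctrl. Its log2 fold change was 1.19 (SE 0.23, adjusted p = 3.36e-04) and 1.03 (SE 0.23, adjusted p = 0.00138), and in HuCCT1 0.79 (SE 0.24, adjusted p = 0.0151). IRF1-AS1, antisense to IRF1, had 153, 132 and 140 counts in HuCCT1 libraries labelled SNRPD2KO, against 79, 87 and 74 counts in Ctrl, a log2 fold change of 0.69 (SE 0.14, adjusted p = 0.00146), while IRF1 itself gave 0.02.

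ENSG00000266978, an unnamed long noncoding RNA gene that lies across ICAM1 on the opposite strand, was counted at low levels. It had 5, 2 and 1 counts in HuCCT1 libraries labelled SNRPD2KO, against 23, 21 and 12 counts in Ctrl. It reached the filter there only through Ctrl, so its counts are given with no test. In HEK293T it had 1, 0 and 0 counts in libraries labelled SNRPD2KO and 1, 2 and 1 counts in PUS7KO, against 10, 12 and 13 counts in Ctrl. WAKMAR2, antisense to the start of TNFAIP3, had 35, 36 and 26 counts in HuCCT1 libraries labelled SNRPD2KO, against 22, 26 and 17 counts in Ctrl, and did not pass there (log2 fold change 0.44 (SE 0.25, adjusted p = 0.163)).

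Beyond the 10 genes, 75 further pathway genes were described in 4 lists: 11 kinases, 29 receptors, adaptors and ubiquitin enzymes, 5 other Rel and IkappaB genes, and 30 further targets. Of 24 further targets tested in HuCCT1, 20 were lower and 2 higher in libraries labelled SNRPD2KO, with a median log2 fold change of -0.96. In that line 66 of the 75 were tested, 36 of them lower and 17 higher. The background there is the 28.4 percent lower and 28.8 percent higher of all genes, at a median of 0.00. The lists were chosen with earlier results of these data known, so counts over them are a description and no independent support.

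CXCL8, a neutrophil chemokine, had 8.66, 9.08 and 7.5 CPM in HuCCT1 libraries labelled SNRPD2KO, against 65.5, 61.4 and 69.1 CPM in Ctrl. No library came near those of the other group, and the log2 fold change was -2.95 (SE 0.09, adjusted p = 3.14e-09). IL1B, the cytokine interleukin-1 beta, had 4.99, 6.53 and 6.17 CPM in these libraries, against 36.8, 37.4 and 42.1 CPM in Ctrl, a log2 fold change of -2.72 (SE 0.11, adjusted p = 2.41e-08). TRAF1, an adaptor of TNF receptors that NF-kappaB is known to induce, had 11.8, 12.9 and 12 CPM, against 57.6, 53.1 and 49.4 CPM in Ctrl, a log2 fold change of -2.13 (SE 0.08, adjusted p = 1.62e-08). The 2 targets that were higher were TNFAIP8 at 0.82 and TNFAIP2 at 0.13.

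Of 11 kinases in HuCCT1, 6 were higher and 3 lower at a median of 0.35, against the 28.8 percent higher and 28.4 percent lower of all genes. TBK1, which phosphorylates IRF3 and some NF-kappaB regulators, had 17.5, 15.2 and 13.7 CPM in libraries labelled SNRPD2KO, against 7.18, 6.15 and 8.08 CPM in Ctrl (1.12 (SE 0.14, adjusted p = 3.86e-05)). RIPK1, the kinase that scaffolds TNF receptor signalling, had 40.3, 42.9 and 41.3 CPM, against 21.5, 20.1 and 19.5 CPM in Ctrl (1.03 (SE 0.07, adjusted p = 6.35e-07)). MAP3K14, which encodes NIK, the kinase that starts p100 processing, was lower, with 35.4, 35.2 and 32.9 CPM in libraries labelled SNRPD2KO, against 64.7, 62.4 and 64.9 CPM in Ctrl (-0.89 (SE 0.06, adjusted p = 4.27e-07)).

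Of 27 receptors, adaptors and ubiquitin enzymes tested in HuCCT1, 8 were higher and 11 lower, at a median of -0.16. These counts are to be read against the 28.8 percent higher and 28.4 percent lower of all genes. SHARPIN, a subunit of the linear ubiquitin ligase, was higher at 0.95 (SE 0.13, adjusted p = 1.06e-04), and FADD, the death-receptor adaptor, and TRAF6, the ubiquitin ligase of interleukin-1 and Toll-like receptor signalling, were lower at -0.87 and -0.80. The other Rel and IkappaB genes split. RELB, the noncanonical subunit, had 31.5, 29.1 and 33.3 CPM in HuCCT1 libraries labelled SNRPD2KO, against 53.6, 52.6 and 52.1 CPM in Ctrl (-0.75 (SE 0.07, adjusted p = 3.67e-06)), and BCL3, a nuclear IkappaB protein, was lower at -0.73 (SE 0.11, adjusted p = 1.25e-04). NFKBIZ, which encodes the nuclear cofactor IkappaB-zeta, was higher, with 68.3, 53.6 and 65.6 CPM, against 44.5, 37 and 40.8 CPM in Ctrl (0.62 (SE 0.10, adjusted p = 2.65e-04)).

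In HEK293T, of 52 pathway genes tested, 12 were higher and 19 lower in libraries labelled SNRPD2KO and 9 were higher and 16 lower in PUS7KO. Among all genes 26.9 percent were higher and 26.4 percent lower in libraries labelled SNRPD2KO, and 25.6 percent higher and 23.8 percent lower in PUS7KO, and the counts of pathway genes are to be read against those shares. Of 14 targets tested, 2 were higher and 3 lower in libraries labelled SNRPD2KO, at a median of 0.07, and 1 was higher and 2 lower in PUS7KO, at a median of 0.11. Of 11 kinases, 4 were higher and 5 lower in libraries labelled SNRPD2KO and 2 higher and 4 lower in PUS7KO. Of 23 receptors, adaptors and ubiquitin enzymes tested, 6 were higher and 10 lower in libraries labelled SNRPD2KO and 6 higher and 9 lower in PUS7KO. The other Rel and IkappaB genes gave 1 lower of 4 tested in each.

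MAP3K14 had 1.18, 1.43 and 2.22 CPM in HEK293T libraries labelled SNRPD2KO and 2.2, 2.25 and 2.29 CPM in PUS7KO, against 7.29, 8.33 and 5.11 CPM in Ctrl. It was the kinase with the largest difference, -2.07 (SE 0.28, adjusted p = 1.12e-05) in libraries labelled SNRPD2KO and -1.62 (SE 0.26, adjusted p = 9.71e-05) in PUS7KO. TBK1 had 7.08, 7.37 and 5.72 CPM in libraries labelled SNRPD2KO and 9.46, 9.52 and 7.81 CPM in PUS7KO, against 18.5, 17.6 and 20.3 CPM in Ctrl. It was lower here, at -1.49 and -1.07, and higher in HuCCT1, a difference between the lines of 2.57 (SE 0.21, adjusted p = 5.53e-08). The regulatory subunit gene IKBKG was higher in libraries labelled SNRPD2KO at 0.74 (SE 0.24, adjusted p = 0.0161), and its near-identical pseudogene copy makes its counts uncertain. IKBKE, a TBK1 relative, was lower in PUS7KO at -0.71 (SE 0.26, adjusted p = 0.0344).

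BCL10, an adaptor of the antigen-receptor branch, had 12.8, 14 and 17.8 CPM in HEK293T libraries labelled SNRPD2KO and 14.2, 15.4 and 15.2 CPM in PUS7KO, against 34.2, 37.8 and 35.2 CPM in Ctrl. Its log2 fold change was -1.26 and -1.26, with adjusted p of 4.14e-07 and 5.42e-07. SHARPIN was higher at 1.27 in libraries labelled SNRPD2KO and 0.99 in PUS7KO. TAB1, a partner of the kinase TAK1, was also higher, at 1.27 and 1.00. NFKBIZ went against its direction in HuCCT1, with 3.22, 4.4 and 4.35 CPM in libraries labelled SNRPD2KO and 3.72, 4.93 and 5.83 CPM in PUS7KO, against 9, 9.13 and 10.2 CPM in Ctrl. Its log2 fold change was -1.24 (SE 0.21, adjusted p = 8.79e-05) and -0.97 (SE 0.20, adjusted p = 7.22e-04), and the difference between the lines was 1.81 (SE 0.20, adjusted p = 1.18e-06). Of the targets, CD83 was higher at 0.49 and GADD45B and SDC4 lower at -0.48 and -0.43 in libraries labelled SNRPD2KO, and SDC4 was lower at -0.45 in PUS7KO.

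**Figure D4:**
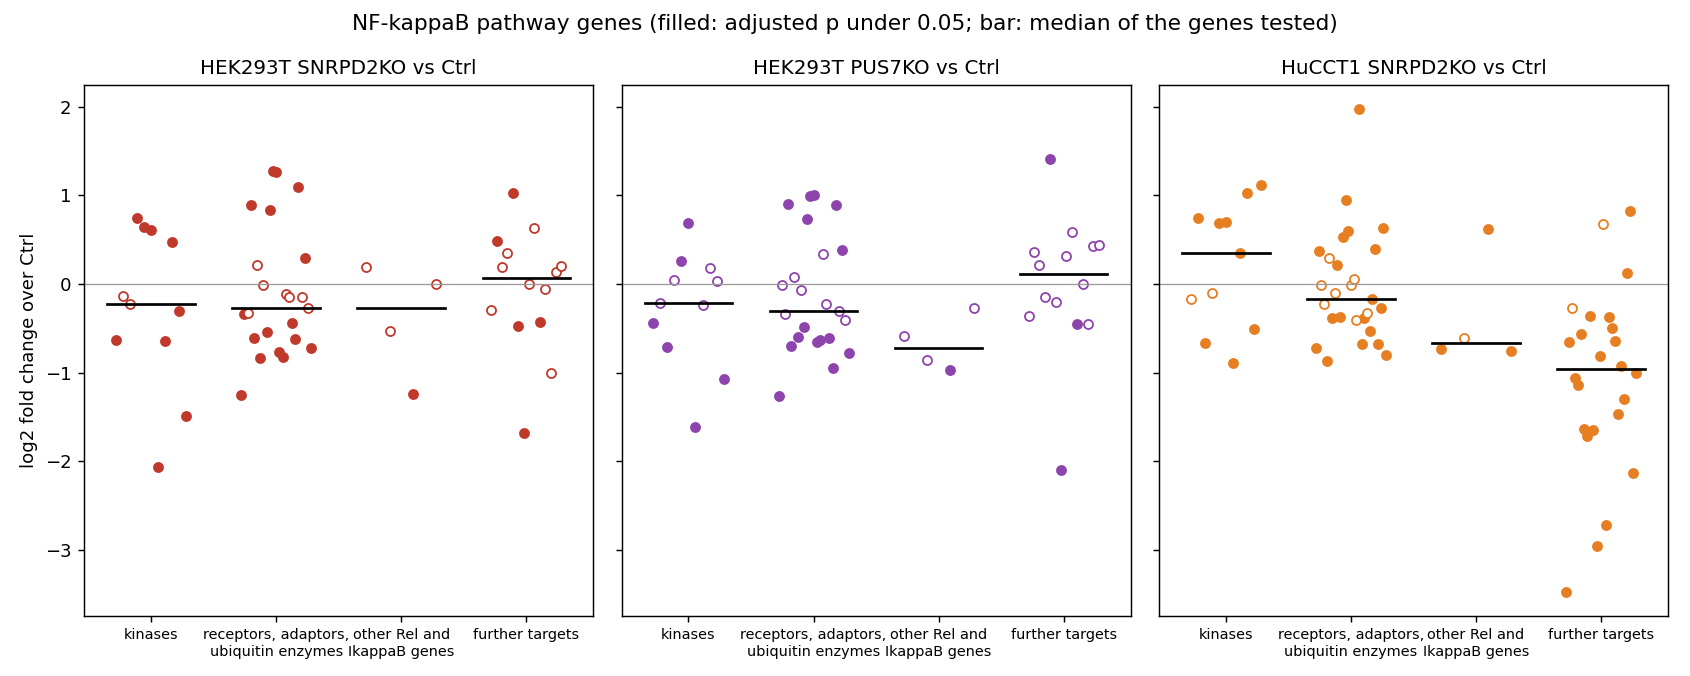
Log2 fold change over Ctrl of the pathway genes tested, by list and comparison, filled where the adjusted p was under 0.05, with bars at the medians. The further targets lie mostly below 0 in HuCCT1, at a median of -0.96, and around 0 in HEK293T, at medians of 0.07 and 0.11. All lists were chosen with earlier results of these data known.

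Libraries labelled SNRPD2KO and PUS7KO libraries of HEK293T differed directly in 2 of the 52 pathway genes, against 4.77 percent of all genes. MAP3K7, which encodes TAK1, was lower in libraries labelled SNRPD2KO at -0.41 (SE 0.11, adjusted p = 0.0478), and IRAK1, a kinase of interleukin-1 signalling, was higher at 0.38 (SE 0.10, adjusted p = 0.0349). Both calls depend on single libraries, since leaving out replicate 1 or 2 of the libraries labelled SNRPD2KO, or PUS7KO replicate 1 or 2, left 0 pathway genes called, and leaving out SNRPD2KO replicate 3 left 6.

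For each of the 10 genes, the gene with the most similar pattern was sought among 12708 genes, by the root mean square (RMS) difference of group-mean log2 CPM, centred within line, over the 5 groups. With so many genes and 5 points a close match is easily found, so these names are a description. ICAM1 was closest to TLE3 (RMS 0.00724), REL to PFKFB3 (0.00925), RELA to CRNKL1 (0.0109) and NFKB2 to IRX5 (0.0117). IRF1 was closest to FIGNL1 (RMS 0.0125), NFKB1 to HNRNPC (0.0130) and NFKBIA to MUL1 (0.0157). NFKBIE was closest to NAF1 (RMS 0.0271), TNFAIP3 to PRR15L (0.0418) and BIRC3 to ENSG00000278879 (0.0484), which has no name in the tables.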

How the data were processed

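Total RNA of 9 HEK293T and 6 HuCCT1 libraries was depleted of ribosomal RNA and sequenced with a strand-specific Illumina kit, per the labels' protocols. The authors deposited 1 table per line of whole-number counts per gene, not normalised. The submitters' processing notes name cutadapt 4.2, HISAT2 2.2.1, RSEM and the build hg38, and the annotation release and the strand setting of the counting are not given in the sources used here. Groups were taken from the labels, which name the columns C for SNRPD2KO, P for PUS7KO and S for Ctrl. The labels of the HuCCT1 samples give these columns under a table name that begins with CHOL, and they were matched to the HuCCT1 table by column name alone.

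The 2 lines were fitted separately with edgeR 4.0.16 under R 4.3.3. The settings were TMM factors, edgeR's filter on low counts at its defaults (at least 10 counts, 15 in total), the quasi-likelihood F test over all groups of the line, and Benjamini-Hochberg adjustment over all genes tested, two-sided, at 0.05. CPM are scaled by TMM factors within a line. The difference between the lines was an interaction over 12 libraries. The coefficient of variation between replicates was 10.8% in HEK293T and 10.1% in HuCCT1, and pairs of replicates differed by more than counting error, the chi-square of pairs being 3.7 to 14.8 times its degrees of freedom. Alternatives were other normalisations and filters, limma 3.58.1 voom, DESeq2 1.42.0, a GC correction, a replicate block and leaving out each library.

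The members and the pathway lists were chosen with earlier results of these data known. Besides the 10 members, list genes were named by a rule: at most 3 per list and comparison, with the largest absolute log2 fold change among those called with at least 5 CPM in the higher group. TNFAIP8, TNFAIP2, BIRC2, CD14, overlapping genes and, in the closing section, LIF and CD40 stand outside it, and those that are not overlapping genes were chosen after their values were seen.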

Additional observations from a re-analysis of the deposited data

Results flagged for a closer look

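The response to the label SNRPD2KO differed between HuCCT1 and HEK293T for 6 of the 10 genes by the interaction test of edgeR, adjusted over all genes, where 40.7 percent of all genes were called. The differences below are HuCCT1 minus HEK293T in log2 fold change over Ctrl, and in both lines SNRPD2 RNA was higher in the libraries that carry the label. NFKB2 differed by -1.01 (adjusted p = 1.01e-06), with -0.61 in HuCCT1 and 0.36 in HEK293T. REL differed by 1.14 (adjusted p = 0.00106), with 0.28 in HuCCT1 and -0.91 in HEK293T. BIRC3 differed by 2.94 (adjusted p = 4.16e-06), and its HEK293T value rests on at most 4 counts in any library labelled SNRPD2KO. In the fit of HEK293T alone BIRC3 passed the low-count filter only through Ctrl, and the count of 6 genes includes it. NFKBIA differed by -0.72 (adjusted p = 4.67e-05) and NFKBIE by -0.72 (adjusted p = 3.95e-04), both lower by more in HuCCT1. RELA differed by -0.43 (adjusted p = 0.00535), the smallest of the 6. With the GC trend removed, RELA differed by -0.27 and did not pass (adjusted p = 0.0556), and REL differed by 0.60 (0.0476). The NFKB2 value in HEK293T was then -0.00505.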

How the results depend on the processing

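Over 839 pairs of a member's result and an alternative, 787 kept their direction and their side of the threshold, 21 lost the threshold, 10 gained it, 20 turned sign without a call on either side and 1 reversed a called value. The 20 came from 11 results, and under the alternative their absolute log2 fold change was at most 0.203. The called value that reversed was NFKB2 in HEK293T libraries labelled SNRPD2KO, at -0.00505 with the GC trend removed. In HuCCT1 none of the 10 genes changed its call under any alternative run. Fold change followed GC content across genes, with Spearman's rho of 0.36 in HEK293T libraries labelled SNRPD2KO over Ctrl, 0.177 in PUS7KO over Ctrl, 0.486 between them and -0.0197 in HuCCT1. With that trend removed, RELA (-0.42, adjusted p = 9.96e-04), NFKBIA (-0.43, 0.00244) and ICAM1 (-0.93, 0.0415) became lower in HEK293T libraries labelled SNRPD2KO, NFKBIE (-0.47, 0.0121) in PUS7KO, and TNFAIP3 gained a difference between the lines (0.53, 0.0277). Without a low-count filter the median of all genes shifted to -0.19 in libraries labelled SNRPD2KO and -0.14 in PUS7KO of HEK293T. There RELA in PUS7KO gave -0.19 (0.313) and ICAM1 -0.87 (0.137). DESeq2 gave -0.99 (0.0928) for ICAM1.

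HEK293T libraries labelled SNRPD2KO against PUS7KO gave 758 genes called, which became 1292 without a filter, 127 with the GC trend removed (51.2% of them higher, against 32.8% as designed), 464 with only the groups compared, and 22 (without SNRPD2KO replicate 1) to 1891 (without SNRPD2KO replicate 3) with 1 library left out. The 2 pathway genes called there became 1 with RLE factors or limma voom, 4 without a filter, 0 with the GC trend removed and 0 to 6 with 1 library left out. The cause was not tested.

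Replicate numbers did not pair the samples: same-numbered libraries had correlations of their deviations of -0.09 to 0.04 in HEK293T and -0.04 to -0.01 in HuCCT1. With the replicate block, calls numbered 8320 in HEK293T libraries labelled SNRPD2KO, 7674 in PUS7KO, 560 between them with 1 pathway gene, and 8346 in HuCCT1. Depth limited BIRC3 and ICAM1 in HEK293T, where 3 counts, the limit that a count of 0 allows, equal 0.250 to 0.341 CPM, for counting error only.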

Other observations

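Some pathway genes were singled out after their values were seen. CXCL8, a chemokine gene that was lower in HuCCT1 libraries labelled SNRPD2KO, was higher in both HEK293T comparisons at low counts, with 16, 14 and 38 counts in libraries labelled SNRPD2KO and 31, 33 and 28 counts in PUS7KO, against 12, 7 and 10 counts in Ctrl. Its log2 fold change in HEK293T was 1.03 (SE 0.36, adjusted p = 0.0246) in libraries labelled SNRPD2KO and 1.41 (SE 0.35, adjusted p = 0.00327) in PUS7KO. Libraries labelled SNRPD2KO were uneven, at 1.72, 1.54 and 3.24 CPM. With CXCL8, 2 further targets were called higher in them, and 1 with DESeq2, without SNRPD2KO replicate 3 or without Ctrl replicate 2. Which gene was lost is not given here. The CXCL8 difference between the lines was -4.05 (SE 0.34, adjusted p = 5.65e-08). LIF, a cytokine of the interleukin-6 family, was lower in each comparison with Ctrl, at -1.68 (SE 0.33, adjusted p = 4.25e-04) in HEK293T libraries labelled SNRPD2KO, -2.09 (SE 0.34, adjusted p = 1.01e-04) in PUS7KO and -0.50 (SE 0.07, adjusted p = 1.59e-04) in HuCCT1. CD40, a receptor of the TNF family, averaged 10.4 ± 1.14 CPM in HEK293T libraries labelled SNRPD2KO and 10.5 ± 2.17 CPM in PUS7KO, against 5.57 ± 2.35 CPM in Ctrl (SD, n = 3 each). Its log2 fold change was 0.89 (SE 0.24, adjusted p = 0.00541) and 0.91 (SE 0.24, adjusted p = 0.00541).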
